A study of Mus musculus with 39 samples.

Results

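Hair keratins and keratin-associated proteins are the structural proteins of the hair follicle and the hair shaft. The genes described here were all gene symbols of the deposited tables that begin with Krtap, together with 22 hair keratins on a fixed list, kept where the 24 hind paw libraries held at least 10 reads in sum. Of 72 such genes in the tables, 70 were kept among 22609 genes in all: 21 keratins and 49 Krtap genes. Krtap31-1, with 16 reads in sum, lay just inside the limit, and Krtap13 and Krtap31-2, with 5 reads each, lay just outside it. By role they were 7 keratins of the inner root sheath, 1 keratin of the companion layer (Krt75), 13 keratins of the hair shaft, 17 high-sulphur, 17 ultra-high-sulphur and 13 high-glycine-tyrosine Krtap genes, and 2 Krtap genes left without a class (Krtap16-1 and Krtap31-1).

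Expression was measured by stranded poly(A) RNA sequencing in punch biopsies of hind paw skin and in DRG, the sensory ganglia of the spinal nerves, at levels L3 to L5. The mice were C57 and 8 to 12 weeks old; the titles call the vehicle females WT, and those of the paclitaxel samples give no genotype. Paclitaxel, a cancer drug that binds microtubules, was given by 2 intraperitoneal injections of 3 mg/kg a day apart. Days are counted from the last injection: paw skin of treated females was taken on days 2, 6, 16 and 26 and that of treated males on days 2, 6 and 15. The control group was of females sampled 1 day after vehicle, and vehicle males were not analysed here. Titles of all male samples also carry the letters LC, which the labels do not explain and female titles lack, so males and females may differ by more than sex and day. DRG came from vehicle females and from treated females and males on days 2 and 6. Each of the 13 groups held 3 libraries. Whether the 3 libraries of a group are 3 animals is not stated in the labels, and p-values therefore describe the spread among the libraries alone, part of which may be technical.

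A hair shaft grows from dividing matrix cells at the base of the follicle. The descendants of those cells form concentric layers: the inner root sheath, which moulds the shaft and is built on type I keratins Krt25 to Krt28 and type II keratins Krt71 to Krt74, the companion layer around it, and the cuticle and cortex of the shaft itself, which use the hair keratins. In the cortex and cuticle the keratin filaments are set in a matrix of Krtap proteins, rich in cysteine (high-sulphur and ultra-high-sulphur families) or in glycine and tyrosine, which are made late, as the shaft cells harden. Follicles pass through growth (anagen), regression (catagen) and rest (telogen), and the shaft genes are transcribed in growing follicles.

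The genes lie in clusters. Of the 68 that matched the reference, 31 were on mouse chromosome 11, 20 on chromosome 16, 9 on chromosome 15, 5 on chromosome 7 and 3 on chromosome 10, and all 13 high-glycine-tyrosine genes were on chromosome 16. On chromosome 11, 8 of them followed one another without another protein-coding gene between (Krtap17-1, Krt33a, Krt33b, Krt34, Krt31, Krt32, Krt35 and Krt36), as did 7 others from Krtap3-3 to Krtap9-3. The 250 bases before the annotated start are given for 7 genes that the results turn on: Krt71 for the inner root sheath, Krt31 for the cortex, Krt84, which kept most of its vehicle level in treated females, the neighbours Krtap3-1 and Krtap3-2, which differed in how much of their RNA was left, Krtap4-7 for the ultra-high-sulphur class and Krtap8-1 for the high-glycine-tyrosine class. They are RefSeq sequences of build GRCm38.p6 (the counts were made on mm9), all on the minus strand, at chr15:101743098-101743347 (Krt71), chr11:100050552-100050801 (Krt31), chr15:101532821-101533070 (Krt84), chr11:99566631-99566880 (Krtap3-1), chr11:99556854-99557103 (Krtap3-2), chr11:99644090-99644339 (Krtap4-7) and chr16:89487953-89488202 (Krtap8-1). Capitals mark the letters TATAAA of a TATA box and the letters CTTTGA or CTTTGT, the core bound by Lef1 and its relatives. A motif on the other strand reads TTTATA for the first and TCAAAG or, for the last, ACAAAG. None of the marked motifs overlap each other.
Krt71: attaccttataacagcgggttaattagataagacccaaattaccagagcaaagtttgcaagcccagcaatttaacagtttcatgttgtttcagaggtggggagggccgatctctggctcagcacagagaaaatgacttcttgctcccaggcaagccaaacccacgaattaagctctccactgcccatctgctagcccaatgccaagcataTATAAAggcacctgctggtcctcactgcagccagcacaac
Krt31: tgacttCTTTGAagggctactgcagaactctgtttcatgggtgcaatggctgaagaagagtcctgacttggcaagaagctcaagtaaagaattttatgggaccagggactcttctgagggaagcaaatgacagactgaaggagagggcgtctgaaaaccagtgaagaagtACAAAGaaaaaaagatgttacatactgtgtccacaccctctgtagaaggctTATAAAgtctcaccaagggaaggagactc
Krt84: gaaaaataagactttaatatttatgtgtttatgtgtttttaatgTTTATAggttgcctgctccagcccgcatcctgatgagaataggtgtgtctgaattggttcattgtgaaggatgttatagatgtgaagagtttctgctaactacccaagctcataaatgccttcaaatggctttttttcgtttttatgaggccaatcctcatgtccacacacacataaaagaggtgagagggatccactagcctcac
Krtap3-1: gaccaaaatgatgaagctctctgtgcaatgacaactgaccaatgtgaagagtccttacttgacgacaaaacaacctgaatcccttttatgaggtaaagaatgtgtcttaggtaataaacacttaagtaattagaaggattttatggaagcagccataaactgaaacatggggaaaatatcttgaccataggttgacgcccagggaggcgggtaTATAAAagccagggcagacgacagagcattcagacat
Krtap3-2: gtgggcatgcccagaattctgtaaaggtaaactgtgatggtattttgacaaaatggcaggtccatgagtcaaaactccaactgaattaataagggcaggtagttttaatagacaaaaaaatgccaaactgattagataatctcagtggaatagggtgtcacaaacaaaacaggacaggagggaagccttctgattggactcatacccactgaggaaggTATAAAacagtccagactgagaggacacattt
Krtap4-7: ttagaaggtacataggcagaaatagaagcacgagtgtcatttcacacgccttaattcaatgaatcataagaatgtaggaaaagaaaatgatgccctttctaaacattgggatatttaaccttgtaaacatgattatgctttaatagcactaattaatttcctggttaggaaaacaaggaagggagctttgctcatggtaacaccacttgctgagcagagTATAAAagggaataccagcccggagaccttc
Krtap8-1: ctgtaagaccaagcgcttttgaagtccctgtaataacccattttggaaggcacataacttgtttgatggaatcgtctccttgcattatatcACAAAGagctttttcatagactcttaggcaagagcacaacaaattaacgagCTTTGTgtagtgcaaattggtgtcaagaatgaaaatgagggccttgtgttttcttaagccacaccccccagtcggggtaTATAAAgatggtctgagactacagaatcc
In 6 of the 7 a TATAAA on the gene's own strand began 29 to 40 bases before the start (at 40 in Krt71, 29 in Krt31, 37 in Krtap3-1, 32 in Krtap3-2, 31 in Krtap4-7 and 29 in Krtap8-1). In Krt84 the motif was found only on the other strand, 206 bases before the start. Over the 57 genes with a promoter in the table, 36 (63.2%) held TATAAA on their own strand between 50 and 11 bases before the start, against 780 of 27025 promoters of all genes (2.89%). That position was filled in 5 of 6 inner root sheath keratins, 4 of 7 shaft keratins, 8 of 14 high-sulphur, 12 of 16 ultra-high-sulphur and 6 of 12 high-glycine-tyrosine genes. CTTTGA or CTTTGT on either strand within the 250 bases was found in 25 of the 57 (43.9%) against 30.8% of all promoters. A match is a run of letters and not a measured binding site.

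Paw libraries held 16781618 to 24598926 gene reads and DRG libraries 19049166 to 26136854. In paw a count of 3 reads, taken as the floor below which a group at 0 is not distinguished, equals 0.122 to 0.179 CPM, counts scaled to a library of 1e6 gene reads. Krt14, a keratin of basal epidermis, stood at 2504 to 4880 CPM in every paw library, and Prph, a neuronal filament gene, at 1238 to 2408 CPM in every DRG library. The share of reads that touched more than 1 gene split the paw libraries into a set of 12 with 0.205% to 0.240% (all paclitaxel females) and a set of 12 with 0.539% to 0.632% (vehicle females and paclitaxel males). A comparison of treated females with any group outside their own sets these libraries against each other, and the set and the treatment or sex cannot be told apart in it. Comparisons among days of females, among days of males, and of males with vehicle females do not cross the sets. Biopsies also differed in content: 12 skeletal muscle genes summed to between 67.6 and 39829 CPM, and Krt9, the keratin of palm and sole epidermis, lay between 32.8 and 11746 CPM.

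Summed over the 70 genes, the hair transcripts came to 276, 186 and 384 CPM in the 3 vehicle libraries (replicates 1 to 3). In females they came to 7.91, 78.4 and 10.1 CPM on day 2, to 10.8, 67.5 and 152 CPM on day 6, to 335, 304 and 2366 CPM on day 16 and to 176, 264 and 208 CPM on day 26. In males they came to 1035, 623 and 559 CPM on day 2, to 108, 917 and 1097 CPM on day 6 and to 1736, 1697 and 1487 CPM on day 15. All female libraries of days 2 and 6 lay below all vehicle libraries, and all male libraries of days 2 and 15 lay above them. Single libraries stood apart from their groups: replicate 3 of female day 16 and replicate 2 of female day 2 were high, and replicate 1 of male day 6 was low. Replicate 3 of female day 16 held the highest CPM of all 24 libraries for 53 of the 70 genes. It was among the poorer libraries in muscle transcripts (814 CPM, against 17215 and 20886 CPM in the other 2 of its group), and its Krt9 level was 3376 CPM against 4695 and 6083 CPM. The part of tissue content in these levels was not tested. All comparisons with vehicle share the same 3 vehicle libraries. In bulk tissue, fewer cells of a type and less RNA per cell cannot be told apart.

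**Figure D1:**
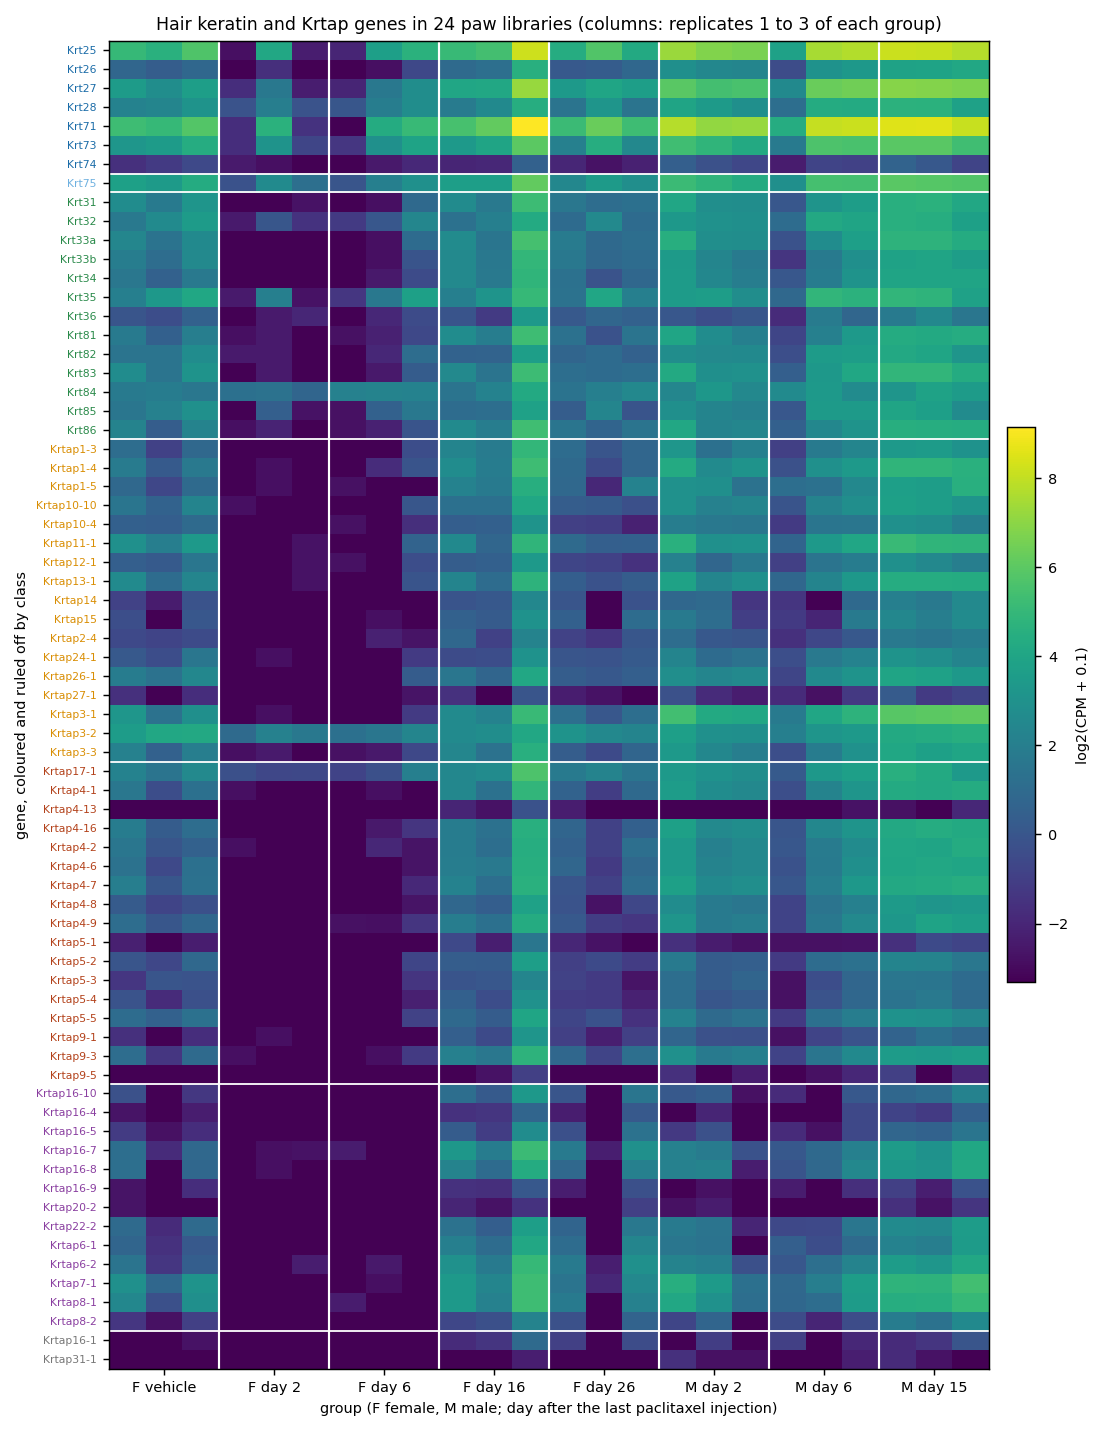
Each row is 1 of the 70 genes, ruled off and coloured by class, and each column 1 of the 24 paw libraries, 3 per group in the order of replicate number; colour gives log2(CPM + 0.1). Females on days 2 and 6 are dark for nearly all shaft keratins and Krtap genes, the inner root sheath block at the top stays bright in replicate 2 of day 2 and in replicates 2 and 3 of day 6, and replicate 3 of female day 16 is the brightest column for 53 genes.

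In female paw skin 2 days after paclitaxel, 42 of the 70 genes fell against vehicle and none rose (edgeR quasi-likelihood test, Benjamini-Hochberg adjusted p under 0.05 over 17665 genes), where 12.6% of all genes tested were called lower. For 57 of them every day 2 library lay below every vehicle library, which was so for 24% of all genes. Of the 70 genes, 34 had 0 reads in all 3 day 2 libraries, 49 had at most 1 read in each of them, and 5 had 10 or more reads in all 3. Some of the 34 had few reads in vehicle too, and Krtap31-1, Krtap4-13 and Krtap9-5 had 0. Of the 55 genes with 30 or more vehicle reads, 21 had 0 reads on day 2. The day 2 mean was under 10% of vehicle for 45 of these 55. No such shares were computed over all genes. The median log2 change was −5.88 as fitted and −3.39 with the genes at 0 reads set to their bound (a floor of 3 reads per library), beside 0.03 over all genes tested. The fall was called for 9 of 13 shaft keratins, 14 of 17 high-sulphur, 13 of 17 ultra-high-sulphur and 5 of 13 high-glycine-tyrosine genes, and for 1 of 7 inner root sheath keratins. Counts of calls do not rank the classes by depth of fall. In the high-glycine-tyrosine class, Krtap16-4, Krtap16-5, Krtap16-9, Krtap16-10, Krtap20-2 and Krtap8-2 had 1 to 19 vehicle reads in sum and 0 on day 2. The sum of that class was 3.45 to 25.1 CPM in vehicle and 0 to 0.152 CPM on day 2.

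The shaft keratins of the cortex were close to absent. Krt31, a type I cortex keratin, had 114, 70 and 173 reads in the vehicle libraries and 0, 0 and 1 on day 2. Not one day 2 library came near the vehicle range, and the pooled level was 404-fold lower (95% counting interval 72.1 to 16017; adjusted p = 0.00216, edgeR). Krt83, a type II cortex keratin, had 115, 56 and 161 reads against 0, 2 and 0, 188-fold lower (interval 51.6 to 1559; adjusted p = 0.00241, edgeR). Krt33a, Krt33b and Krt34, the type I neighbours of Krt31 on chromosome 11, had no read on day 2 and were lower by at least 33.1-fold (adjusted p = 0.00802), 28.0-fold (0.0037) and 18.1-fold (0.0035, all edgeR). Bounds and intervals cover counting error only. Krt31, Krt33a, Krt33b, Krt34 and Krt83 share 21.9% to 33.1% of their 50-base windows with transcripts of other genes, so their single counts are uncertain. Krt32, a cuticle keratin, fell by 3.94 ± 1.09 on the log2 scale (standard error, 3 against 3 libraries; adjusted p = 0.0122, edgeR), from 56, 127 and 221 reads in vehicle to 2, 20 and 5 on day 2, and the call was lost without day 2 replicate 1 (adjusted p = 0.0549) or replicate 3 (0.0578). Krt85, a keratin of the early shaft, had 50, 90 and 149 reads against 0, 28 and 1, lower in every library, and just missed the threshold (adjusted p = 0.0518, edgeR).

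Most Krtap genes of the shaft matrix were also close to absent. Krtap3-1, a high-sulphur gene, had 162, 53 and 143 reads in vehicle and 0, 1 and 0 on day 2, and the pooled level was 406-fold lower (interval 72.3 to 16062; adjusted p = 0.000476, edgeR). The groups were far apart. Krtap11-1, a high-sulphur gene on chromosome 16, had 131, 81 and 204 reads against 0, 0 and 1, 471-fold lower (interval 84.1 to 18657; adjusted p = 0.00187, edgeR). In the ultra-high-sulphur class, whose proteins carry the most cysteine, Krtap4-7 had 68, 19 and 47 reads in vehicle and none on day 2, at least 17.4-fold lower (adjusted p = 0.00473, edgeR). Every vehicle library held each of these genes and day 2 libraries held at most 1 read. In the high-glycine-tyrosine class Krtap7-1 had 133, 36 and 161 reads and Krtap8-1 94, 15 and 140 reads in vehicle, and neither had a read on day 2. They were at least 42.5-fold (adjusted p = 0.00315, edgeR) and 32.1-fold lower (0.00869).

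**Figure D2:**
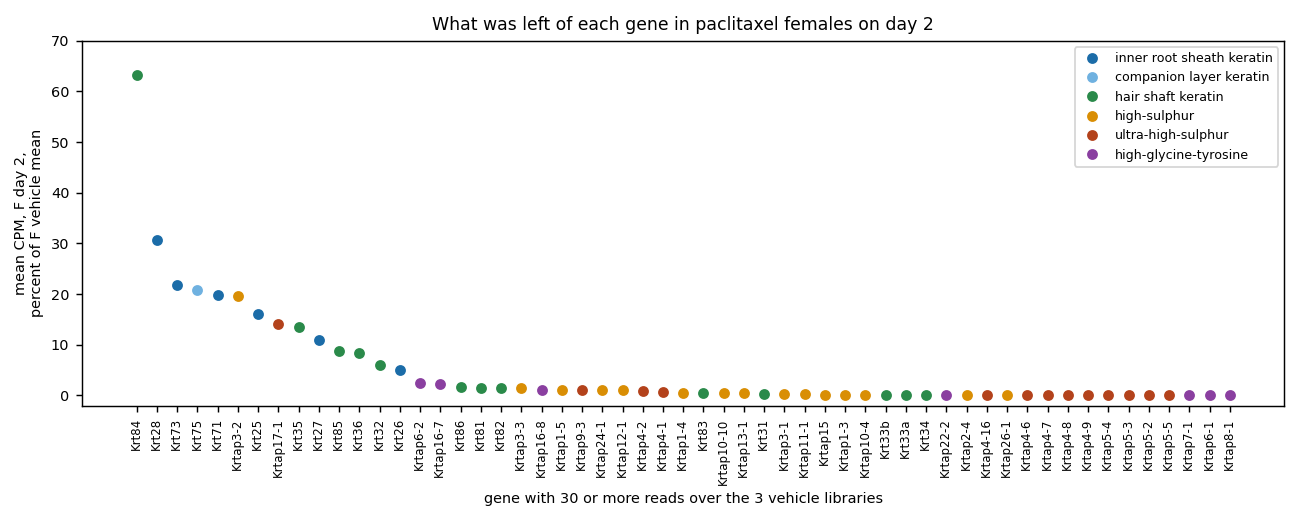
For the 55 genes with 30 or more reads over the 3 vehicle libraries, the mean CPM of female day 2 is plotted as a percentage of the vehicle mean on a linear axis, coloured by class and sorted. Krt84 stands alone at 63.2%, 5 inner root sheath keratins (Krt28, Krt73, Krt71, Krt25 and Krt27) lie between 10.9% and 30.7% together with Krt75, Krtap3-2, Krtap17-1 and Krt35, and 45 of the 55 genes are under 10%.

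Of the inner root sheath keratins 6 of 7 were not called. The sum of the 7 was 57.8 CPM in replicate 2 of day 2, against 1.59 and 1.78 CPM in the other libraries of that day and 81.0 to 153 CPM in vehicle. Krt74 was low throughout, with 22 reads in sum in vehicle and 3 on day 2. Krt71, a type II keratin of the inner root sheath whose mutation gives mice a wavy coat, had 671, 675 and 1079 reads in vehicle and 5, 552 and 5 on day 2. Replicates 1 and 3 were nearly empty, and replicate 2 came close to the lowest vehicle libraries, though below them in CPM. The log2 difference was −2.19 ± 1.34 (adjusted p = 0.248, edgeR), and −7.39 without replicate 2 (adjusted p = 0.00909). Krt25, its type I partner, had 578, 502 and 1024 reads in vehicle against 1, 394 and 2, a log2 difference of −2.49 ± 1.31 (adjusted p = 0.174, edgeR) that became −8.83 without replicate 2 (adjusted p = 0.00532). Krt27 had 198, 143 and 246 reads against 5, 68 and 2, and Krt73 had 163, 235 and 402 reads against 5, 186 and 10. In both genes replicate 2 was the highest of day 2 and still lay below every vehicle library in CPM. Krt27 missed the threshold (−3.06 ± 1.14, adjusted p = 0.0556, edgeR) and passed it with the replicate number as a block (0.0433), with DESeq2 (0.0263) and without replicate 2 (0.0143). Krt26 alone of the 7 was called, with 28, 25 and 33 reads against 0, 5 and 0 (−4.09 ± 1.40, adjusted p = 0.0387, edgeR), and lost the call with the muscle level as a covariate (0.0908) and without any 1 library but day 2 replicate 2 (0.0614 to 0.126).

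Krt75, the keratin of the companion layer, had 234, 230 and 388 reads in vehicle and 18, 139 and 45 on day 2. It was lower in each day 2 library than in any vehicle library, by 2.15 ± 0.81 on the log2 scale, and missed the threshold (adjusted p = 0.0584, edgeR). It passed with the replicate number as a block (0.0312), with DESeq2 (0.0324) and without day 2 replicate 2 (0.0202). Krt35, a shaft keratin that is among the first to appear above the matrix, had 71, 207 and 327 reads in vehicle and 2, 90 and 1 on day 2, so that replicate 2 again carried it. Its log2 difference was −2.75 ± 1.28 (adjusted p = 0.125, edgeR) and −7.01 without replicate 2 (adjusted p = 0.0154). Replicate 2 of day 2 thus held Krt71, Krt25, Krt27, Krt75 and Krt35 at 68 to 552 reads and Krt31, Krtap3-1, Krtap11-1, Krtap4-7 and Krtap7-1 at 0 or 1. In that library there were 6.34 reads of inner root sheath keratins per read of shaft keratins, against 1.75 to 1.97 in the 3 vehicle libraries and 0.587 and 0.833 in the other 2 of day 2. In those 2 libraries most shaft keratin reads were of Krt84. Without Krt84 the shaft keratins summed to 0.344, 6.66 and 0.558 CPM in day 2 replicates 1 to 3. The inner root sheath sums were higher, at 1.59, 57.8 and 1.78 CPM, so the low ratios of replicates 1 and 3 rest on Krt84.

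Among shaft genes 3 kept part of their level in all day 2 libraries. Krt84, a type II hair keratin known in humans from the filiform papillae of the tongue, had 59, 78 and 58 reads in vehicle and 55, 55 and 31 on day 2. In CPM (2.99 to 3.74 against 1.57 to 2.46) the groups were next to each other without overlap, and the log2 difference was −0.57 ± 0.53 (adjusted p = 0.457, edgeR). Krtap3-2, a high-sulphur gene beside Krtap3-1 on chromosome 11, had 206, 367 and 352 reads in vehicle and 44, 97 and 61 on day 2. It fell by 2.25 ± 0.45 on the log2 scale (adjusted p = 0.00104, edgeR) and so kept 19.6% of its vehicle mean, where Krtap3-1 kept at most 1 read. Of Krtap3-2's 50-base windows, 28.9% are shared with transcripts of other genes. Krtap17-1, an ultra-high-sulphur gene next to the type I hair keratins, had 78, 56 and 113 reads against 17, 12 and 11 and fell by 2.72 ± 0.98 (adjusted p = 0.048, edgeR), a call lost without any 1 of the 6 libraries (0.0587 to 0.131) and with the muscle covariate (0.0913).

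On day 6, 30 of the 70 genes were lower than in vehicle females and none higher, where 11.7% of all genes were called lower, and the median log2 change was −3.39 as fitted and −2.81 with groups at 0 at their bound, beside −0.02 over all genes. The count was 9 without day 6 replicate 2, 11 without day 6 replicate 1, 13 without vehicle replicate 3 and 15 without vehicle replicate 1. Called genes were 6 of 13 shaft keratins, 11 of 17 high-sulphur, 8 of 17 ultra-high-sulphur, 5 of 13 high-glycine-tyrosine and 0 of 7 inner root sheath keratins. The libraries of the group were unlike each other. Krt71 had 0, 496 and 608 reads, and its log2 difference from vehicle was −1.08 ± 1.29 (adjusted p = 0.587, edgeR), so an empty library stood beside others near the vehicle range. Krt31 had 0, 1 and 33 reads and fell by 3.26 ± 1.09 (adjusted p = 0.0332, edgeR), a call that was lost without day 6 replicate 1 (0.117) or 2 (0.113) or vehicle replicate 1 (0.0665) or 3 (0.0965) and in a fit of the 2 groups only (0.105), and the log2 difference was −7.68 without day 6 replicate 3.

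Krtap genes called on day 6 included some with almost no reads. Krtap3-1 had 0, 0 and 6 reads, far below every vehicle library, and fell by 5.81 ± 1.17 (adjusted p = 0.00106, edgeR), with a log2 difference of −9.92 without replicate 3. Krtap7-1 had 0, 1 and 0 reads and was called lower (adjusted p = 0.00397, edgeR). Krtap3-2, with 49, 72 and 88 reads, fell by 2.08 ± 0.45 (adjusted p = 0.00173, edgeR) and stood near its day 2 level. Krt84 had 92, 116 and 80 reads, each day 6 library above each vehicle library in CPM, with a log2 difference of 0.56 ± 0.51 (adjusted p = 0.465, edgeR). Krt35 had 6, 77 and 238 reads, across the whole range from near absence to the vehicle level (−0.75 ± 1.16, adjusted p = 0.686, edgeR). The biopsies of this group differed in Krt9, which stood at 9500, 32.8 and 11746 CPM in replicates 1 to 3, and in summed muscle genes, at 138, 8828 and 151 CPM; their part in the differences was not tested. None of the 70 genes was called between day 6 and day 2 (edgeR, where 0.306% of all genes were called in either direction), 4 had an unadjusted p under 0.05, and DESeq2 called 8 higher on day 6.

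On day 16, 67 of the 70 hair genes had a read in all 3 libraries, and the sum of the 70 in replicate 3 stood far above the vehicle range. Against day 2, a comparison within one set of libraries, 44 of the 70 rose and none fell, while 0.866% of all genes were called higher: the 44 were among 153 such genes in all. For 65 of the 70 each day 16 library lay above each day 2 library, which held for 7.51% of all genes. The median log2 change was 8.62 as fitted and 5.66 at the bound, beside −0.02 over all genes. The count was 0 without day 2 replicate 3, 21 without day 16 replicate 3, 25 without day 2 replicate 2, and 0 in a fit of only these 2 groups. Krt31 had 133, 58 and 731 reads on day 16 and 1 read in sum on day 2, a pooled ratio of 1031 (95% counting interval 185 to 40781; adjusted p = 0.0084, edgeR). It rose in every library, and the call was lost without day 16 replicate 3 (0.0524), day 2 replicate 2 (0.0532) or day 2 replicate 3 (0.0722).

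Of the inner root sheath keratins, Krt26 and Krt27 were called higher. Krt27 had 352, 323 and 2924 reads on day 16 against 5, 68 and 2 on day 2, a rise of 5.80 ± 1.21 (adjusted p = 0.0236, edgeR). Krt26 had 40, 41 and 451 reads against 0, 5 and 0, a rise of 6.85 ± 1.30 (adjusted p = 0.0127, edgeR). In both genes all day 16 libraries lay above all day 2 libraries, and both calls were lost without day 16 replicate 3 (0.217 for Krt27 and 0.121 for Krt26) or without day 2 replicate 3 (0.146 and 0.0908). Krtap3-1, with 129, 83 and 665 reads, and Krtap4-1, an ultra-high-sulphur gene with 112, 44 and 577 reads against 1, 0 and 0, were called higher (both adjusted p = 0.00643, edgeR) and lost the call only without day 2 replicate 3 (both 0.0574) or in the fit of 2 groups (both 0.42). The genes that had kept a level on day 2 missed the threshold, Krt84 at 2.06 ± 0.53 and Krtap3-2 at 1.74 ± 0.44 (both adjusted p = 0.065, edgeR), although neither gene's groups overlapped. Both were called with DESeq2 (0.00305 and 0.00412) and without day 16 replicate 1 (0.00898 and 0.0381) or 2 (0.0354 and 0.0489).

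Against vehicle females, 22 genes were higher on day 16 and none lower, where 9.63% of all genes were called higher, and the median log2 change was 2.41 as fitted and 2.23 at the bound, beside 0.02 over all genes. This rested on a few libraries: 1 gene was called without day 16 replicate 3, 1 without vehicle replicate 2, 4 without vehicle replicate 3, 10 without vehicle replicate 1, and 0 when only the 2 groups were fitted. Called genes were 1 inner root sheath keratin, 4 shaft keratins, 4 high-sulphur, 10 ultra-high-sulphur and 3 high-glycine-tyrosine genes. Krt71 had 963, 1273 and 10980 reads, and in CPM (46.0, 70.2 and 568, against 32.3 to 55.7 in vehicle) replicate 1 lay inside the vehicle range and replicate 3 far above it (2.59 ± 1.33, adjusted p = 0.195, edgeR). Without replicate 3 its log2 difference was 0.54 (adjusted p = 0.821). Krt31 overlapped with vehicle (1.49 ± 0.90, adjusted p = 0.282, edgeR) and stood at −0.31 without replicate 3 (adjusted p = 0.855).

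Among the called genes, both high-glycine-tyrosine genes named here lay above vehicle in all 3 libraries. Krtap16-7, a gene of this class, had 199, 67 and 687 reads on day 16 and 38, 4 and 34 in vehicle, with every day 16 library higher, and rose by 3.72 ± 1.01 (adjusted p = 0.0136, edgeR). The call was lost without day 16 replicate 3 (0.104), without vehicle replicate 2 (0.0602) and in the fit of 2 groups (0.0655). Krtap6-2, another gene of the class, had 162, 62 and 624 reads against 46, 6 and 24 and rose by 3.55 ± 1.02 (adjusted p = 0.0196, edgeR), a call lost without day 16 replicate 3 (0.155), vehicle replicate 2 (0.0837) or vehicle replicate 3 (0.0749) and with 2 groups (0.0723). Krtap4-1 rose by 2.81 ± 0.83 (adjusted p = 0.0221, edgeR), and the call was lost without day 16 replicate 3 (0.345), vehicle replicate 2 (0.0956) or 3 (0.0647) and with 2 groups (0.125). Krt84, with 57, 81 and 362 reads, overlapped with vehicle and was called at the limit (1.49 ± 0.51, adjusted p = 0.0489, edgeR). The call was lost under most other settings, among them relative-log-expression size factors (0.0503), no filter on low counts (0.0509) and the fit without day 16 replicate 3, where its log2 difference was 0.16 (0.815).

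On day 26 none of the 70 genes was called against vehicle (edgeR, where 17.3% of all genes were called in either direction). An unadjusted p under 0.05 was found for 5, DESeq2 called 2, and the fit of only these 2 groups called 7, all of them lower. The median log2 change was −0.43 over the 70, −0.65 over the shaft keratins, −1.23 over the high-sulphur and 1.53 over the high-glycine-tyrosine genes. In the last class the sum was 0.385 to 46.5 CPM on day 26, on both sides of the 3.45 to 25.1 CPM of vehicle. Its highest genes, Krtap7-1 and Krtap8-1, stood at 48.0% and 57.1% of their vehicle means. The others of the class stood above theirs, some with few vehicle reads (Krtap16-4 with 3 in sum, Krtap20-2 with 1). Krtap3-2 had 164, 102 and 82 reads against 206 to 367 in vehicle, lower in every library, with a log2 difference of −1.23 ± 0.43 that missed the threshold (adjusted p = 0.0546, edgeR) and passed it with DESeq2 (0.0187), the muscle covariate (0.0442) and the fit of 2 groups (0.0185). Against day 2 no gene of the whole table passed edgeR's test on day 26 (0.0% of all genes), while 56 of the 70 had an unadjusted p under 0.05 and DESeq2 called 42 higher. For counts by unadjusted p, by DESeq2 or by fits of 2 groups, here and elsewhere, no share over all genes is given. They therefore cannot be read against a background. For 46 of the 70 the day 26 libraries all lay above the day 2 libraries, beside 7.79% of all genes.

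**Figure D3:**
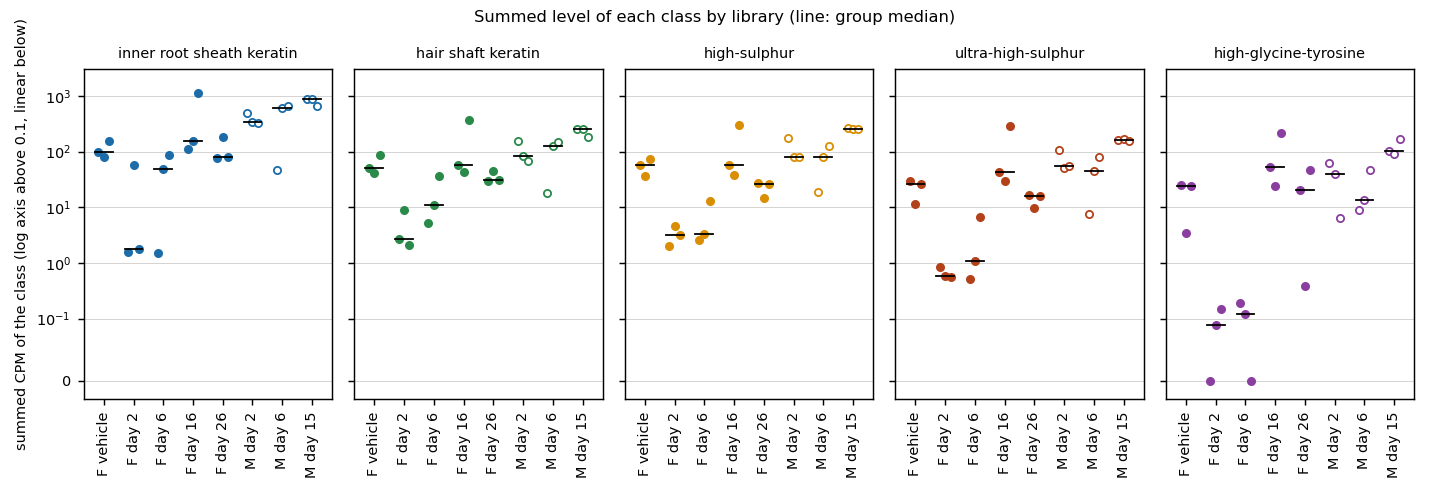
Each panel sums the CPM of 1 class in each of the 24 paw libraries (filled points, females; open points, males; short lines, group medians), on an axis that is logarithmic above 0.1 CPM and linear below it. Females of days 2 and 6 have the lowest group medians in every class, down to 0 reads in single libraries for high-glycine-tyrosine genes, though day 6 reaches 88.4 CPM for inner root sheath keratins, inside the vehicle range, and replicate 2 of day 2 stays at 57.8 CPM for inner root sheath keratins. Males of day 15 are the highest group by median in all 5 panels.

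In males the summed hair genes lay above the vehicle range in every library but replicate 1 of day 6. Compared with females at the same day, a comparison added after values were seen and one that crosses the sets of libraries, 57 of the 70 genes were higher in males on day 2 and none lower, where 13.3% of all genes were called higher. Leaving out single libraries gave 46 to 55. For 61 of the 70 the libraries of the sexes did not overlap, beside 18.8% of all genes. All 17 high-sulphur genes, 14 of 17 ultra-high-sulphur, 8 of 13 high-glycine-tyrosine, 11 of 13 shaft keratins, 6 of 7 inner root sheath keratins and Krt75 were called. The median log2 difference was 7.13 as fitted and 4.73 with groups at 0 at their bound. Krt31 had 360, 148 and 142 reads in males against 1 in sum in females, a pooled ratio of 674 (95% counting interval 121 to 26657; adjusted p = 0.000688, edgeR), and Krtap3-1 had 890, 396 and 360 reads against 1, a ratio of 1706 (interval 306 to 67442; adjusted p = 2.49e-05, edgeR). Every male library was far above every female library in these genes.

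Krt71 had 4602, 2992 and 3050 reads in males on day 2, 4.26 ± 1.45 higher than in females on the log2 scale (adjusted p = 0.0347, edgeR). It was 9.45 higher without female replicate 2, and the call was lost without any 1 of the other 5 libraries (0.051 to 0.113) and in the fit of 2 groups (0.109). Krt84, with 110, 200 and 113 reads, was 1.63 ± 0.52 higher (adjusted p = 0.0254, edgeR), a call lost without female replicate 1 (0.0528) or 3 (0.0979) or male replicate 2 (0.116). Krtap3-2, with 279, 158 and 150 reads, was 1.54 ± 0.44 higher (adjusted p = 0.0138, edgeR), a call lost without female replicate 1 (0.0641) or male replicate 1 (0.062). Male libraries lay above female libraries for both genes. Krt35 had 248, 256 and 141 reads and was not called (2.81 ± 1.28, adjusted p = 0.114, edgeR); without female replicate 2 it was called (0.0145), as it was with the replicate number as a block (0.0393).

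On day 6, 44 genes were higher in males than in females and none lower, where 15.5% of all genes were called higher. The count was 28 without male replicate 3 and 29 without female replicate 1 or female replicate 2, and the sexes did not overlap for 33 of the 70 genes, beside 27.8% of all genes. Male replicate 1 was low here, with 447 reads of Krt71 against 5517 and 5199 in the other 2 and 20 reads of Krt31 against 179 and 222. The log2 difference of Krt71 was 3.34 ± 1.38 (adjusted p = 0.0711, edgeR). Krtap3-1 had 74, 344 and 496 reads in males and 0, 0 and 6 in females, a difference of 7.19 ± 1.15 (adjusted p = 0.000104, edgeR), or 11.3 without female replicate 3. Whether the change from day 2 to day 6 differed between the sexes was tested as an interaction: no gene of the table passed with edgeR (0.0% of all genes), 2 of the 70 hair genes had an unadjusted p under 0.05, and DESeq2 called 0 of them.

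Against vehicle females, in a comparison that does not cross the sets of libraries but joins sex with treatment and time, no hair gene was called by edgeR in males on day 2 (4.41% of all genes in either direction) or day 6 (4.63%), with 15 and 4 at an unadjusted p under 0.05, and DESeq2 called 0 on either day. On day 15, 10 of the 70 were higher and none lower, where 1.68% of all genes were called higher, and all male libraries lay above all vehicle libraries for 62 of the 70, beside 9.88% of all genes. The 10 were Krt26, Krtap1-4, Krtap1-5, Krtap2-4, Krtap3-1, Krtap4-1, Krtap4-2, Krtap4-6, Krtap4-8 and Krtap4-16. The call count was sensitive: 18 with the replicate number as a block, 17 with the muscle covariate, 18 with DESeq2, 51 with only the 2 groups, and 0 without vehicle replicate 2, vehicle replicate 3, male replicate 1 or male replicate 3 (1 without vehicle replicate 1, 3 without male replicate 2). Krtap3-1 had 1302, 1168 and 1224 reads against 53 to 162 in vehicle, a tight group well above the other, and was 3.39 ± 0.77 higher (adjusted p = 0.0238, edgeR; 0.0532 to 0.124 without any 1 library but male replicate 2). Krt71 had 8127, 6922 and 4974 reads, each far above the vehicle range, with a difference of 3.09 ± 1.36 that did not pass over all groups (adjusted p = 0.222, edgeR) and passed in the fit of 2 groups (0.00159). Krt84, with 193, 261 and 208 reads, was 1.83 ± 0.51 higher, missed the threshold (adjusted p = 0.0557, edgeR) and passed with the replicate number as a block (0.0475), with DESeq2 (0.00651) and with the muscle covariate (0.0107). Among male days no gene of the table passed edgeR's test for day 6 or day 15 against day 2 (0.0% of all genes for both), with 0 and 7 hair genes at an unadjusted p under 0.05 and 0 called by DESeq2, although on day 15 the libraries lay above those of day 2 for 51 of the 70, beside 5.28% of all genes. By group median, 66 of the 70 genes were highest in males on day 15.

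**Figure D4:**
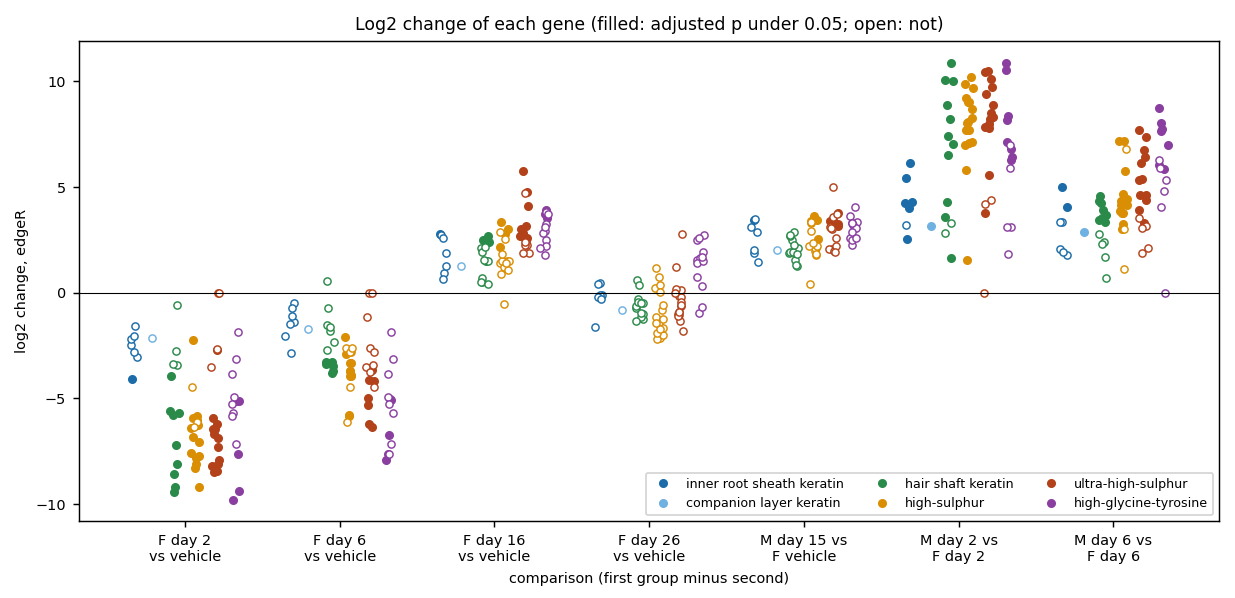
Each point is the fitted log2 change of 1 gene in 1 of 7 comparisons (first group minus second), coloured by class and filled where the adjusted p was under 0.05; the 2 genes without a class are left out, and for genes with a group at 0 reads the fitted value depends on the prior count and is no bound. The clouds lie below 0 for females on days 2 and 6, above 0 for females on day 16 and for males, and around 0 on day 26, where no point is filled.

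Compared per length, the order of levels was headed by the inner root sheath. In vehicle females Krt71 stood at 19.3 ± 5.54 CPM per kb of transcript (SD, n = 3) and Krt25 at 18.4 ± 7.40, followed by Krtap3-2 at 15.4 ± 3.40, Krtap3-1 at 10.6 ± 5.77, Krtap7-1 at 9.48 ± 5.83 and Krtap8-1 at 7.75 ± 5.85 CPM per kb. Each of these 6 differed from the next by less than the larger of their SDs. In males on day 15 Krt71 stood at 157, Krt25 at 131, Krtap3-1 at 106, Krt27 at 72.3 and Krtap7-1 at 51.7 CPM per kb, so that Krtap3-1 stood above Krtap3-2 (20.1), the reverse of their order in vehicle females. On female day 2 Krtap3-2 stood at 3.01 CPM per kb and Krt84 at 0.83, while Krt31 stood at 0.011. Lengths are those of the longest GENCODE protein-coding transcript, not of the annotation used for counting.

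The balance of the Krtap classes varied between libraries of the same group. Per 100 reads of high-sulphur and ultra-high-sulphur Krtap genes, the vehicle libraries held 28.3, 7.12 and 24.7 reads of high-glycine-tyrosine genes. On female day 26 they held 46.6, 1.56 and 110.3 such reads, on male day 2 they held 21.7, 30.5 and 4.67, and on male day 15 they held 23.2, 21.4 and 40.3. On female day 16 the 3 libraries were closer, at 53.5, 35.9 and 37.3, all above the vehicle range. The summed high-glycine-tyrosine level differed 7.27-fold between the highest and lowest vehicle library, 121-fold on female day 26 and 9.76-fold on male day 2. The other classes of several genes differed 1.89-fold to 2.62-fold, 1.51-fold to 2.39-fold and 1.51-fold to 2.26-fold in the same groups. In these 3 groups the glycine-tyrosine sum spread wider than each other class, but not in all groups. On male day 6 the balance was 34.8, 10.8 and 22.3 and the glycine-tyrosine sum had the narrowest spread, 5.05-fold against 6.72-fold to 13.9-fold. On female day 16 its 9.03-fold spread lay within the 7.99-fold to 9.95-fold of the others.

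The widest gap was in replicate 2 of female day 26. It had 3 reads of Krtap7-1 and 0 of Krtap8-1, where its group mates had 53 and 94 and 64 and 73, but 38 reads of Krt31 against 58 and 39 and 1438 reads of Krt71 against 712 and 659. It was also the library of its group with the most Krt35, at 298 reads against 49 and 69. Vehicle replicate 2, low in Krtap8-1 with 15 reads against 94 and 140, held 207 reads of Krt35 against 71 and 327. Krtap14 and Krtap15, which are counted as high-sulphur genes and lie beside Krtap16-9 on chromosome 16, had 0 reads in female day 26 replicate 2 against 17 and 13 and 26 and 34 reads in the other 2. Over the 24 paw libraries their Spearman correlation was higher with the glycine-tyrosine sum (0.918 and 0.951) than with the sum of the sulphur-rich genes (0.858 and 0.868). By that measure all 13 glycine-tyrosine genes, 4 of 17 high-sulphur and 2 of 17 ultra-high-sulphur genes lay nearer to the glycine-tyrosine sum. The gene's own reads were taken out of the sum it belongs to, and the points share the same libraries.

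**Figure D5:**
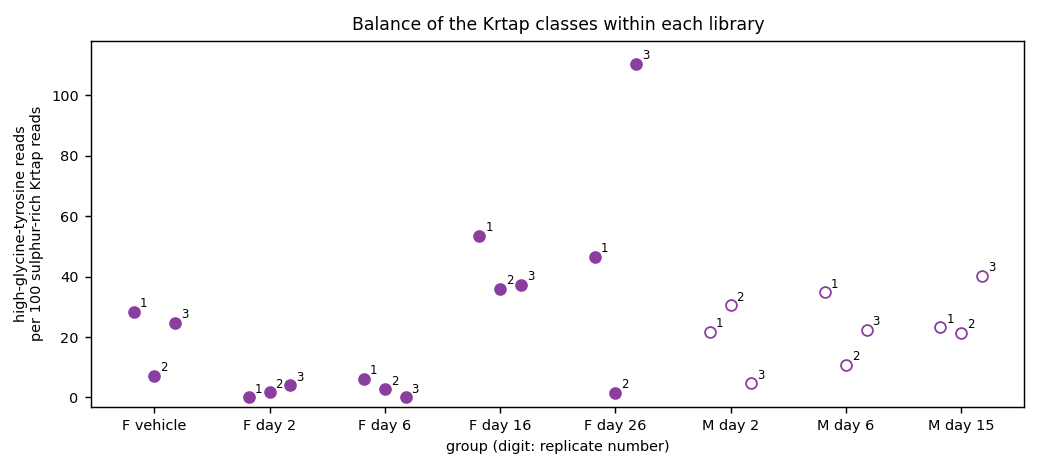
Reads of high-glycine-tyrosine Krtap genes per 100 reads of high-sulphur and ultra-high-sulphur Krtap genes are plotted for each of the 24 paw libraries on a linear axis (filled, females; open, males; digits, replicate numbers). Values within a group spread from 1.56 to 110.3 on female day 26, and the female libraries of days 2 and 6, which held few Krtap reads of any class, lie at 6.25 or lower.

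Of 18 other genes of the hair matrix and shaft, none of them keratins or Krtap genes, 4 fell and none rose on female day 2 against vehicle, where 12.6% of all genes were called lower and 12% higher, with a median log2 change of −0.60. Dsg4, a desmosomal cadherin of the hair cortex, fell by 3.46 ± 1.09 (adjusted p = 0.0253, edgeR) from 1.49, 1.34 and 4.39 CPM to 0.043, 0.536 and 0 CPM, a call lost without vehicle replicate 3 (0.118), day 2 replicate 1 (0.0937) or 3 (0.1), and in the fit of 2 groups (0.0577). Gprc5d, an orphan receptor of hard-keratinizing cells, fell by 5.60 ± 1.30 (adjusted p = 0.00357, edgeR), with a log2 difference of −8.65 without day 2 replicate 1. Both were below every vehicle library throughout. Foxn1, the transcription factor mutated in nude mice, which drives hair keratin genes, fell by 0.93 ± 0.25 (adjusted p = 0.0089, edgeR; 0.0588 without day 2 replicate 3 and 0.0553 in the fit of 2 groups). Dlx3, a homeobox factor of matrix and inner root sheath, fell by 1.05 ± 0.23 (adjusted p = 0.00218, edgeR). Both factors also had fewer reads in each female day 26 library than in any vehicle library, when no hair gene was called. On day 26 Foxn1 had 761, 642 and 563 reads, against 828, 1271 and 1059 in vehicle. Dlx3 had 1415, 1443 and 1229 reads, against 2003, 3089 and 2487. These comparisons cross the sets of libraries, and a link of either factor to the hair genes was not tested. Tchh, trichohyalin of the inner root sheath, had 43.0, 29.4 and 52.6 CPM in vehicle and 7.48, 37.0 and 7.66 CPM on day 2, with replicate 2 inside the vehicle range, and was not called (−1.14 ± 0.84, adjusted p = 0.34, edgeR). The rest of the 18 were not called either, and not all were lower. Crym had 23, 12 and 22 reads in vehicle and 41, 33 and 43 on day 2. Wnt10b had 84, 123 and 109 reads against 133, 115 and 122.

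On day 16 against day 2, 2 of the 18 rose (0.866% of all genes), among them Tchh by 4.47 ± 0.94 (adjusted p = 0.0261, edgeR), from the values above to 85.4, 117 and 927 CPM, a call lost without day 16 replicate 3 (0.288), day 2 replicate 1 (0.055) or day 2 replicate 3 (0.163) and in the fit of 2 groups (0.689). Against vehicle on day 16, 3 of the 18 rose and 1 fell, beside 9.63% and 8.88% of all genes. Between males and females on day 2, 10 of the 18 were higher in males and none lower, beside 13.3% of all genes called higher and 13.5% lower. Dsg4 stood at 5.78, 4.65 and 3.95 CPM in those males, each above every day 2 female, and was 4.52 ± 1.07 higher (adjusted p = 0.00361, edgeR), or 7.34 higher without female replicate 2.

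Other cell types of the skin gave these counts on female day 2 against vehicle, to be read against 12% of all genes called higher and 12.6% lower, so that 1 gene of a list of 7 to 10 is near the background. Of 7 follicle stem cell genes 1 rose and none fell, and their summed level, mostly of Krt15 and Cd34, was 534 to 578 CPM in vehicle and 612 to 669 CPM on day 2. Of 8 sebaceous gland genes 1 fell and none rose, with sums of 2536 to 3141 CPM against 1686 to 2127 CPM. Scd1 made up most of that sum, with 40287, 58590 and 43377 reads in vehicle. The same 8 genes summed to 1164 to 1268 CPM in vehicle DRG, so the sum is not particular to the glands. Of 10 melanocyte genes 1 fell and none rose, and of 8 epidermal keratinocyte genes 1 fell and none rose, with overlapping sums. Of 10 mitosis genes 6 fell and none rose, among them Mki67, a marker of dividing cells, by 1.71 ± 0.29 (adjusted p = 0.000262, edgeR), from 289, 447 and 386 CPM to 191, 72.1 and 62.7 CPM. None of 12 skeletal muscle genes was called, with a median log2 change of 1.67. Of 8 sensory neuron genes 4 rose. The 8 summed to 42.4 to 59.3 CPM in vehicle and 45.3 to 55.9 CPM on day 2. Of these, Nefl had 84 to 165 reads in all treated female paw libraries, 25 to 33 in vehicle and 16 to 41 in males. Prph, too, had more reads in every treated female library than in any other paw library. This split is that of the library sets, and the part of treatment was not tested. In DRG the 8 epidermal genes summed to 186 to 279 CPM in treated females and 27.1 to 61.3 CPM in vehicle and males. The part of these other cells in the levels of the hair genes was not tested.

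Outside the chosen genes, the 10 genes whose level followed the summed shaft keratins most closely over the 24 paw libraries, among 13879 genes with a mean of at least 1 CPM, were Tgm6, Gm10024, Gm10272, Fam26d, Dsg4, Vsig8, Krt40, Gm2696, Gm10100 and Gprc5d (Spearman correlations 0.957 to 0.986). Tgm6 is a transglutaminase and Krt40 another type I hair keratin. Vsig8 stood at 8.21, 8.91 and 16.7 CPM in vehicle females, at 0.344, 0.402 and 0.051 CPM on female day 2 and at 8.94, 11.1 and 75.3 CPM on female day 16. Genes chosen by this correlation follow the hair genes over these libraries by construction. Krt40 had no read on female day 2 and stood at 0.717, 0.441 and 5.74 CPM on day 16. Gm2696 shares 567 exon bases with Krtap10-10 on the same strand, so reads of the pair cannot be told apart there.

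In DRG the hair genes were near absent. Of the 70, 24 had 0 reads in all 15 DRG libraries and 65 had at most 5 reads in each, and the shaft and Krtap genes that led in skin were among them, with Krt31 at 0 throughout and Krt71 at 0 to 5 reads. The other 5 were read in every DRG library: Krt27 with 33 to 86 reads (median 62), Krt83 with 16 to 42, Krt25 with 17 to 38, Krt28 with 12 to 34 and Krt26 with 5 to 13. Krt25 to Krt28 lie side by side on chromosome 11. Their DRG levels were steady: Krt27 stood at 1.40 to 3.93 CPM in DRG against 0.101 to 151 CPM in paw, and the summed inner root sheath keratins at 4.72 to 5.84 CPM in vehicle, 4.62 to 4.87 and 4.67 to 6.30 CPM in females on days 2 and 6, and 3.61 to 5.85 and 4.61 to 5.89 CPM in males on days 2 and 6. Treated groups overlapped with vehicle. In paw, the lowest libraries of female day 2 held fewer reads of Krt27 (5 and 2) than any DRG library.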

How the data were processed

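The deposited files hold raw read counts per gene, 1 column per library, for 24 paw and 15 DRG libraries. Per the labels' protocols, poly(A) libraries were made with a stranded kit and sequenced as single 50-base reads, and per the submitters' processing notes bcl2fastq, TopHat2 and HTSeq were used with genome build mm9. Versions and the strand setting of the counting are not given in the sources used here, so reads of overlapping genes on opposite strands may be mixed (Krt32, Krt75 and Krtap24-1 overlap such genes). Single-end 50-base reads cannot always separate near-identical members: 20 of the 70 genes share 20% or more of their 50-base windows with other genes. The 5 summary lines of each file were left out of library sizes.

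Genes with 10 or more reads summed over the paw libraries (17665, among them all 70 hair genes) were fitted in edgeR 4.0.16 (R 4.3.3, limma 3.58.1) with TMM size factors and 1 coefficient per group over all 24 paw libraries, and tested by quasi-likelihood with Benjamini-Hochberg adjustment over all genes. Alternatives were relative-log-expression size factors, 2 other filters on low counts, DESeq2 1.42.0, a replicate block, the compared groups alone, a muscle covariate and each library left out. Shares over all genes are given for the main edgeR calls and for non-overlap of libraries, and not for counts by unadjusted p or by the alternatives. The scripts were tested on simulated data. Standard errors of log2 differences are the size of the difference divided by the square root of the F value of its quasi-likelihood test. CPM are counts scaled to 1e6 gene reads. Folds use a floor of 3 reads per library where a group had 0 reads, and exact binomial counting intervals on pooled reads where it had 1 to 3; these cover counting error only.

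The labels share replicate numbers between groups without saying what a number marks. Same-numbered libraries deviated together in every pair for females on day 2 (correlations 0.123 to 0.529), males on day 6 (0.161 to 0.525) and males on day 15 (0.134 to 0.458) against vehicle, so block values stand beside those results where they change a call. Libraries of 1 group differed by more than sampling noise throughout (chi-square per degree of freedom of at least 4.83).

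Named genes were every keratin of the list, the 4 Krtap genes of each class with the highest mean CPM and genes of the marker lists; Krtap14, Krtap15 and the other Krtap genes listed as called in males on day 15 lie outside this rule and were named after their values were seen. Krtap10 genes are counted as high-sulphur. The hair genes and all lists were chosen with earlier results of these data known, and both comparisons of males with females at the same day were added after values were seen. Coordinates and sequences are of GRCm38.p6 (RefSeq), matched by symbol for 68 of the 70 genes, 7 of them by an older symbol.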

Additional observations from a re-analysis of the deposited data

How the results depend on the processing

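Across the alternatives run (size factors, filters on low counts, DESeq2, replicate block, compared groups alone, muscle covariate and single libraries left out), the single genes followed kept direction and side of the threshold in 862 cases, lost a call in 121, gained one in 30 and turned direction in 1, which was Krt31 on female day 16 against vehicle, at −0.31 without day 16 replicate 3 and 1.97 without replicate 2, the range over single libraries left out. Counts of called hair genes moved by over 1.5 times as follows, and the cause was not tested. Fitting only the 2 groups gave 0 for female day 16 against vehicle and 0 against day 2, 7 for female day 26, 4 for male day 2 and 51 for male day 15 against vehicle. DESeq2 gave 2 for female day 26 against vehicle, 8 for female day 6 and 42 for female day 26 against day 2, and 18 for male day 15. The muscle covariate gave 1 for female day 26 and 17 for male day 15. The replicate block gave 1 for male day 2 and 18 for male day 15 against vehicle, and changed no other count by that much. Same-numbered libraries did not deviate together in every pair in the comparisons of males with females on day 2 (correlations −0.102 to 0.534) and day 6 (−0.469 to −0.042), where the block gave 60 and 46. With single libraries left out, counts against vehicle ran from 30 to 43 for female day 2, 9 to 35 for day 6, 1 to 30 for day 16, 0 to 0 for day 26 and 0 to 3 for male day 15, and stayed at 0 to 0 for male days 2 and 6. They ran from 0 to 2 for female day 6, 0 to 51 for day 16 and 0 to 0 for day 26 against day 2, from 46 to 55 and 28 to 50 for males against females on days 2 and 6, and stayed at 0 to 0 for both later male days against day 2 and for sex by time. Depth limits the lowest genes: a level under 3 reads per library, 0.122 to 0.179 CPM, is not told from 0.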
